A study of Mus musculus with 2 samples.

Results

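The chemokines Cxcl2 and Cxcl3 and the chemokine receptors Cxcr2 and Cxcr4 were followed through the immune cells of lungs with melanoma metastases. They are 4 genes of the 55357 features in the count matrices, taken by gene identifier. They were chosen with earlier results of these data known. Both matrices come from single-cell RNA sequencing of live CD45-positive, 7-AAD-negative cells, which are living white blood cells, sorted from C57 mice bearing tumours of B16F10, a mouse melanoma cell line. In 1 library the tumour cells carried IRF7-C435A, a form of the interferon regulator IRF7 with a cysteine replaced by alanine (the C435A library), and in the other library they carried wild-type IRF7 (the WT library). Tissue was digested with collagenase before the sort. The genotype belongs to the tumour cells, and the sorted immune cells are those of the host. The sources used here give neither the number of animals behind each library nor their age. With 1 library per group there is no test: every interval below is a 95% interval for counting error, and none covers the spread between animals. Intervals on summed RNA counts and on their ratios also leave out the spread between cells. They are too narrow where a few cells hold most of the counts.

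Neutrophils are short-lived white cells that leave the bone marrow, enter tissue and are cleared within days. CXCL2 and CXCL3 are ligands of CXCR2, the receptor that draws mature neutrophils out of the marrow and towards inflamed tissue, and neutrophils and macrophages make CXCL2 themselves when stimulated. CXCR4 binds CXCL12, holds immature neutrophils in the marrow and is regained by ageing ones, and it is also carried by B cells, T cells and monocytes.

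Cells were assigned by the UMIs (unique molecular identifiers, each marking 1 captured RNA molecule) of marker panels that hold none of the 4 genes. A cell passed a panel with at least 3 UMIs of at least 2 different markers, and the 7989 and 7771 cells that passed exactly 1 of 14 panels were used (84.7% and 84.5% of 9427 and 9199 kept cells; here and below the C435A library comes first). In all, kept cells gave 50269416 and 46523362 UMIs (median per cell 3200.0 and 2684.0), and the libraries shared 23 cell barcodes among kept cells. There were 271 and 340 neutrophils, 575 and 440 alveolar macrophages, 345 and 232 monocytes, 64 and 98 macrophages with C1q transcripts, 3483 and 3482 T cells and 2133 and 2538 B cells. Although the label for the cell type reads melanoma cell, only 0.446% and 0.946% of kept cells passed the melanoma panel alone. The neutrophil name held against markers outside its panel: S100a8 and S100a9, which encode the main cytosolic proteins of neutrophils, were 833-fold to 1964-fold above the class with the next highest level. Of 6 such markers for alveolar macrophages, Chil3, Ear2, Fabp4, Lpl and Mrc1 were highest in that class and Fabp5 was higher in conventional dendritic cells.

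**Figure D1:**
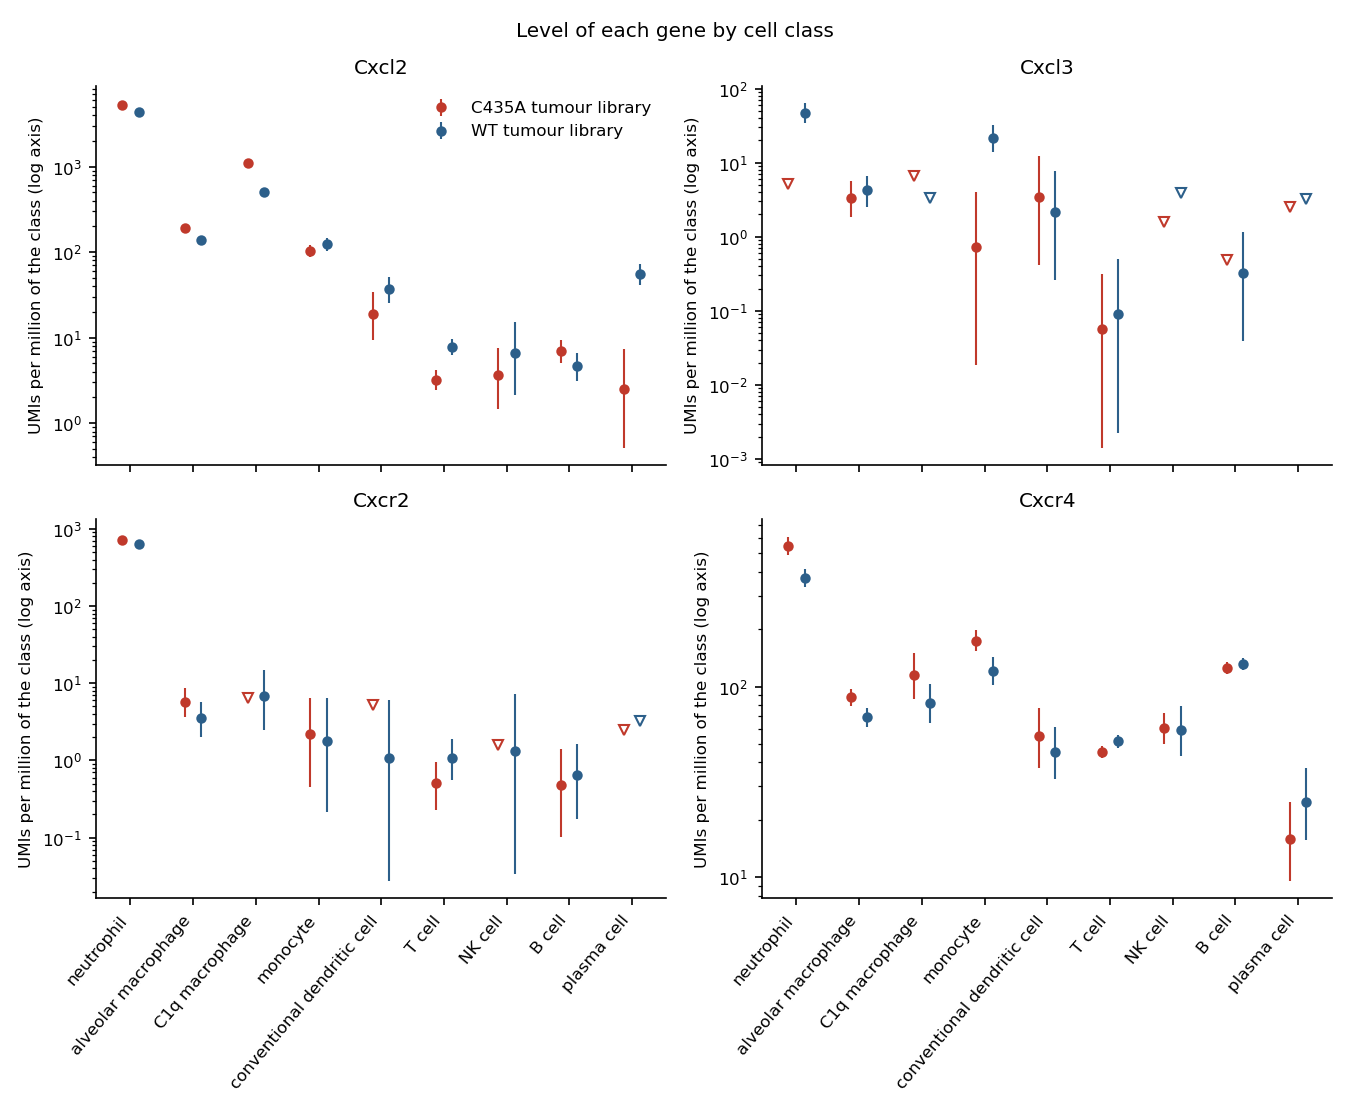
Level of Cxcl2, Cxcl3, Cxcr2 and Cxcr4 in 9 cell classes of the C435A library (red) and the WT library (blue), in CPM (UMIs per 1000000 UMIs of the class) on a log axis. Bars are exact 95% Poisson intervals and open triangles mark a count of 0, placed at the level of 3 counts; Cxcr2 is near or below 7 in each class other than neutrophils, while Cxcr4 is above 15 in all 9.

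Cxcl2 was the ligand of this group found in quantity, and neutrophils were its main source among the classes. Neutrophils gave 3139 and 4094 UMIs of it, or 5320 and 4388 CPM. Those neutrophils were 2.87% and 3.70% of kept cells and held 47.5% and 52.2% of the Cxcl2 UMIs of kept cells. Next in order came the C1q macrophages with 1115 and 505 CPM, then alveolar macrophages with 194 and 139 CPM, then monocytes with 104 and 124 CPM. The step from neutrophils to C1q macrophages was 4.77-fold [4.34, 5.25] and 8.68-fold [7.88, 9.59]. Alveolar macrophages and monocytes stood apart by counting error in the C435A library (1.87-fold [1.57, 2.25]) but not in the WT library (1.12-fold [0.929, 1.36]). Conventional dendritic cells had 18.9 and 36.7 CPM. T cells (3.20 and 7.82 CPM), NK cells (3.67 and 6.59) and B cells (6.98 and 4.64) lay lower still and were not separated from each other in neighbouring steps. Outside the classes, cells that passed several panels held 1635 and 2066 of the 6610 and 7844 Cxcl2 UMIs of all kept cells. Barcodes removed as doublets held a further 1327 and 2766, which are not in those totals or shares.

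Cxcl2 was spread unevenly over cells, most of all outside neutrophils. A neutrophil held between 0 and 88 UMIs of it in the C435A library (median 3.0) and between 0 and 133 in the WT library (median 2.0). Cells with at least 10 UMIs were 95 and 109 of the neutrophils and gave 91.1% and 90.6% of the Cxcl2 of the class. Among alveolar macrophages such cells numbered 29 of 575 and 18 of 440 and still gave 65.1% and 67.5% of its Cxcl2, while the median alveolar macrophage had 0. In C1q macrophages 9 of 64 and 7 of 98 cells gave 93.6% and 86.9%. The median S100a8 and S100a9 count of the Cxcl2-high cells was 0.0 and 1.0 in alveolar macrophages, the same as in the remaining cells of the class. In neutrophils it was 140.0 and 120.0, against 124.5 and 274.0 in the remaining cells. In C1q macrophages it was 0.0 and 1.0, against 0.0 and 0.0 in the remaining cells. Of the neutrophil panel genes Csf3r, Retnlg and Il1r2, at least 1 UMI was found in 2 of the 29 and 3 of the 18 Cxcl2-high alveolar macrophages, against 12.5% and 10.9% of the rest. In C1q macrophages such a UMI was found in 4 of the 9 and 3 of the 7, against 25.5% and 23.1% of the rest. Macrophages that also passed the neutrophil panel had been left out, so low counts of its genes were partly set by the selection.

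**Figure D2:**
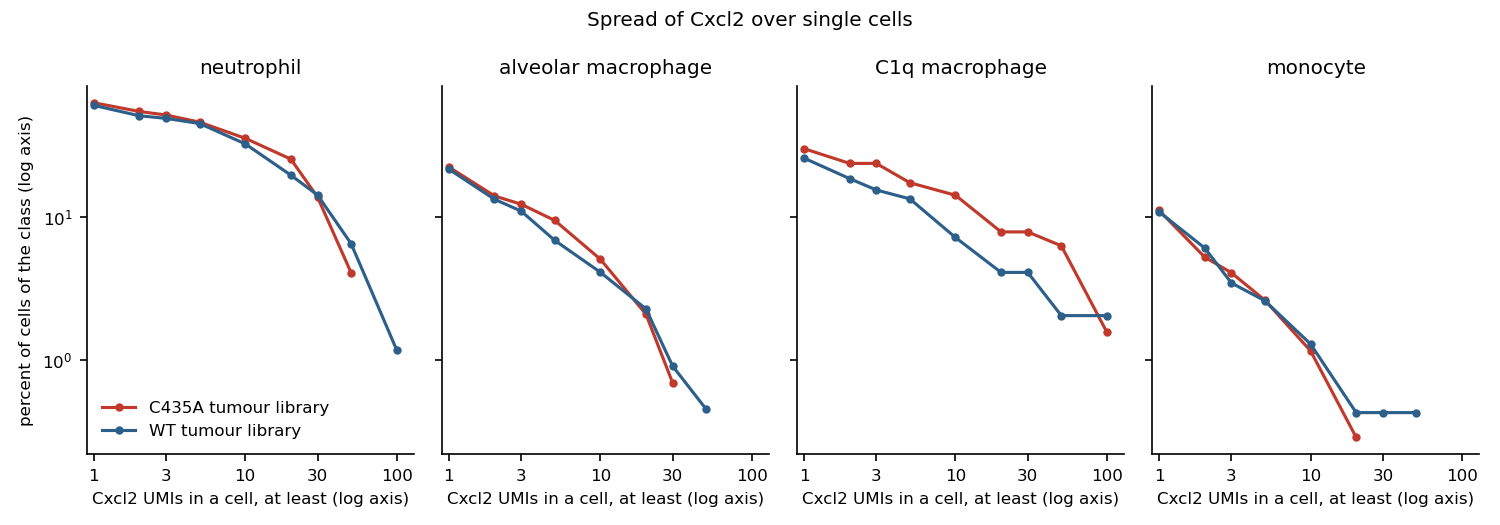
Percent of cells (log axis) that held at least the number of Cxcl2 UMIs on the x axis (log axis), for 4 myeloid classes in the C435A library (red) and the WT library (blue); points with no cell are left out. At 10 UMIs the curves stand at 35.1% and 32.1% of neutrophils and at 5.04% and 4.09% of alveolar macrophages.

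To compare shares of cells at equal depth, each cell was thinned to 1000 UMIs. At that depth 57.2% [51.0, 63.3] and 53.7% [48.2, 59.3] of neutrophils held a Cxcl2 UMI, against 62.0% and 59.4% before thinning. In B cells, which are not thought to make Cxcl2, the thinned shares were 0.847% and 0.557%, with median depths of 2071 and 1899.5 UMIs beside 1637 and 1870 in neutrophils. Alveolar macrophages reached 10.3% [7.97, 13.1] and 7.50% [5.28, 10.5], above the B cells in both libraries.

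Between the tumour genotypes, the Cxcl2 ratio was positive in some classes and negative in others, the differences between classes were not tested, and several directions changed with the choice of cells. In all gated neutrophils the log2 ratio of the C435A library over the WT library was 0.28 [0.21, 0.35], inside the 1.5-fold bound that 12.1% of the 3204 genes measured in neutrophils passed. The median of those genes was itself 0.12, so the Cxcl2 ratio relative to it was smaller. The ratio turned negative with all neutrophils weighted the same (-0.048), without neutrophils that had at least 3 UMIs of the granule genes Camp, Ngp and Ltf (-0.15) and with their share matched (-0.12). The thinned share of Cxcl2-positive neutrophils differed by 3.49 points [-4.60, 11.4] at 1000 UMIs and by 8.63 points at 2000 UMIs. The latter rests on fewer cells, since shallower ones were left out and median neutrophil depths were 1637 and 1870 UMIs. In alveolar macrophages the ratio was 0.48 [0.33, 0.64], again inside the bound that 12.2% of 9106 genes passed and above a class median of 0.11. The C1q macrophages had the highest ratio of the 9 classes, 1.14 [0.96, 1.33], where 15.0% of 4013 genes were past 1.5-fold, and the thinned share there was 19.5% and 14.1% (5.44 points [-5.92, 18.8]). With 93.6% and 86.9% of that Cxcl2 in 9 and 7 cells, the interval of the ratio leaves out a large spread between cells. Both macrophage ratios moved with the choice of cells, between 0.10 with no doublets removed and 0.85 with several-panel cells resolved in alveolar macrophages, and between 0.68 and 1.46 in C1q macrophages. Monocytes had -0.26 [-0.60, 0.09], with 10.6% of 5750 genes past the bound, and conventional dendritic cells, with 11 and 34 UMIs, had -0.96 [-2.09, 0.06] (15.6% of genes past it). In T cells the 57 and 87 UMIs gave -1.29 [-1.80, -0.79], where 32.7% of genes were past 1.5-fold, at a level near that of the B cells. Their subsets differed in sign: CD8 cells gave -1.82 [-2.53, -1.13], cells with neither or both -0.92 [-1.99, 0.08], and CD4 cells, with 16 and 7 UMIs, 0.54 [-0.82, 2.06]. In B cells 43 and 29 UMIs gave 0.59 [-0.12, 1.32] (5.43% of genes). A single WT cell supplied 47 of the 51 Cxcl2 UMIs of the WT plasma cells, against 3 UMIs in the C435A plasma cells (29.3% of genes past 1.5-fold).

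Transcripts of neutrophil marker genes in the other classes also differed between the libraries, but not all in the same direction. S100a8 and S100a9 together stood at 65.5 and 157 CPM in alveolar macrophages, 60.9 and 85.5 in C1q macrophages, 45.7 and 102 in monocytes, 35.3 and 88.7 in T cells and 39.1 and 103 in B cells, lower in the C435A library in each of the 5. Of the other neutrophil markers outside the panel, Clec4d was also lower in each of the 5. G0s2 was higher in the C435A library in alveolar macrophages (25.0 and 13.1 CPM), monocytes (58.0 and 22.5) and T cells (18.6 and 14.2). It had 3 and 1 UMIs in C1q macrophages and 11 and 14 in B cells. Of alveolar macrophages, 2.78% and 23.0% had at least 3 UMIs of S100a8 and S100a9, and without those cells the Cxcl2 ratio was 0.18 instead of 0.48. The cut was made without thinning, on cells with median depths of 6768 and 9677 UMIs, and took out 16 and 101 cells. What part depth had in this share and ratio was not tested. Monocytes held 0 and 4 cells with at least 3 UMIs of S100a8 and S100a9. Those 4 held 58 of the 138 Cxcl2 UMIs of the WT monocytes, all of them in 1 cell, the one with most Cxcl2 in that class. Without the 4 cells the ratio was 0.50, the opposite direction. Without the cell with most Cxcl2 in each library it was 0.25. Both steps take out that same WT cell, so they are not separate checks. In C1q macrophages, leaving out the cells with at least 3 UMIs of S100a8 and S100a9 gave 1.46. Whether RNA from neutrophils had a part in these ratios was not tested otherwise. Over all kept cells, where neutrophils were the smaller share in the C435A library, Cxcl2 had 6610 and 7844 UMIs, a ratio of -0.36 [-0.41, -0.31] (21.3% of genes past 1.5-fold).

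Cxcl3, the near relative of Cxcl2, was rare: 108 and 181 UMIs over all kept cells, in 22 and 46 cells. Neutrophils held 0 in the C435A library, where 3 counts would be 5.08 CPM, and 44 UMIs or 47.2 CPM in the WT library. Set against 3 counts, the level in C435A neutrophils was at least 9.28-fold lower (log2 -3.21), a limit that leaves out the counting error of the 44 UMIs; the exact interval ends nearer to 0, at a log2 ratio of -2.85. The value was -2.59 under a stricter panel rule and -2.66 without the WT cell with most Cxcl3. The 44 WT UMIs lay in 8 cells, of which the highest had 14, 10 and 8. By cells with a UMI, 0 of 271 neutrophils, which allows up to 1.11% by the limit of 3 counts and 1.35% by the exact interval, stands beside 8 of 340, or 2.35% [1.02, 4.58]. Such shares limit cells with a UMI, not cells that express the gene, and the thinned share in B cells was 0% and 0.0577%. The thinned difference in neutrophils was -1.99 points [-4.33, -0.316]. Alveolar macrophages had 14 and 19 UMIs (-0.33 [-1.44, 0.74]), and 23 of the 24 UMIs of WT monocytes came from 1 cell, against 1 UMI in C435A monocytes. Most Cxcl3 of the C435A library, 90 of 108 UMIs (83.3%), lay in 9 cells that passed several panels and so belonged to no class, led by 1 cell with 38 UMIs that passed the alveolar macrophage and T cell panels. In the WT library such cells held 77 of 181 UMIs (42.5%).

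The genes for both ligands lie in a row of CXC chemokine genes on chromosome 5 of GRCm38, where each has 4 exons and encodes 100 residues. Cxcl3 spans chr5:90786103-90789600 and Cxcl2 spans chr5:90903871-90905938, both on the forward strand, with Cxcl15 and Cxcl1 between them and Cxcl5, Ppbp and Pf4 ahead. Among these neighbours, Cxcl1, another CXCR2 ligand, had 120 and 203 UMIs over all kept cells and 9 and 22 in neutrophils. Cxcl5, Ppbp and Cxcl15 had at most 25 UMIs in a library. Pf4, a platelet and macrophage chemokine that does not act through CXCR2, had 970 and 3009 UMIs, of which 298 and 762 were in C1q macrophages and 4 and 18 in neutrophils. Among the CXCR2 ligands of the row, Cxcl2 had the most UMIs in both libraries. Transcripts of Cxcl2 and Cxcl3 share a run of 157 bases, but no run over 9 bases within their last 400 bases, the end that a 3′ library reads.

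The promoters of Cxcl2 and Cxcl3 are printed because the pair share a motif and a neighbourhood while their UMI counts in neutrophils are far apart. Shown are the 150 bases before the RefSeq start site on GRCm38.p6, chr5:90903749-90903898 for Cxcl2 and chr5:90785951-90786100 for Cxcl3, forward strand, with matches to the NF-kB motif (GGGA, any 3 bases, TCC) and to the TATA box TATAAA in capitals.
Cxcl2: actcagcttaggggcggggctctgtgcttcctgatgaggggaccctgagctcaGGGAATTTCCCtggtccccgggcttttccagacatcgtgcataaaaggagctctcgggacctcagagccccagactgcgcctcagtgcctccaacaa
Cxcl3: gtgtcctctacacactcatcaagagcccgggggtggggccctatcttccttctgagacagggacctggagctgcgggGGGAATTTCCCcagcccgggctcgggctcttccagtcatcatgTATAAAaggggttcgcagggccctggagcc
Both hold the same 11 capital letters, an NF-kB match on each strand that overlap, with the forward match starting at position -97 in Cxcl2 and -73 in Cxcl3. Searched on both strands of all 32851 RefSeq promoters of 300 bases (250 before the start and 50 after), this motif was found in 4.59%. TATAAA was found at position -30 of Cxcl3 and of Cxcr4 and in 13.6% of promoters. Neither motif was found in the Cxcr2 window, and TATAAA was not in that of Cxcl2. The NF-kB motif was not found in the Cxcr4 window. The AP-1 motif TGANTCA, held by 7.81% of promoters, was in none of the 4 windows, and the ACGTG core of the hypoxia response element, held by 19.6%, was in that of Cxcl3. Over 300 bases the Cxcl2 and Cxcl3 promoters were 57.6% identical in a global alignment, and the other 5 pairs of the 4 genes were 44.7% to 48.8% identical. These matches describe letters in a window and do not show binding.

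Cxcr2, the receptor for both ligands, was concentrated in neutrophils. The gene lies at chr1:74153989-74161246, forward strand, with 2 exons in the transcript used and 359 residues. Neutrophils had 428 and 596 UMIs, 725 and 639 CPM, and 70.4% and 75.5% of the Cxcr2 UMIs of kept cells. Those shares leave out 114 and 245 UMIs in barcodes removed as doublets. A further 135 and 147 UMIs were in cells that passed several panels, led by those that passed the neutrophil and monocyte panels (48 and 42 UMIs). The class with the next level was alveolar macrophages in the C435A library, with 24 UMIs or 5.76 CPM, 126-fold [83.5, 199] lower. In the WT library it was C1q macrophages, 94.6-fold [43.2, 259] lower, where 1 cell held all 6 UMIs. Below neutrophils no neighbouring classes with a UMI were separated by counting error. A Cxcr2 UMI was found in 55.5% [49.1, 61.5] and 52.7% [47.0, 58.1] of thinned neutrophils (70.8% and 72.9% before thinning) and in 0.0402% and 0.0667% of thinned B cells. No neutrophil had more than 7 and 8 UMIs of it, so the class total did not rest on a few cells.

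Cxcr2 had no steady direction between the tumour genotypes. Its ratio in all neutrophils was 0.18 [0.00, 0.36], but -0.082 without the neutrophils with granule transcripts and -0.16 with their share matched. Its thinned share differed by 2.78 points [-5.31, 10.8] at 1000 UMIs, by -7.25 points at 2000 UMIs and by -2.09 points without thinning. These 3 values rest on different sets of cells, since shallower cells were left out and median neutrophil depths were 1637 and 1870 UMIs. Under TMM scaling, which shifts neutrophil ratios down by 0.13, the ratio was 0.057, and Cxcr4 and Cxcl2 were at 0.44 and 0.15. Alveolar macrophages gave 0.70 [-0.28, 1.71] from 24 and 16 UMIs and T cells -1.10 [-2.52, 0.28] from 9 and 12. The other 6 classes had fewer than 20 UMIs over both libraries and have no ratio.

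Cxcr4, the receptor for CXCL12, was the most widely spread member, at 15.9 CPM or more in each of the 9 classes. Its gene is at chr1:128588199-128592293 on the reverse strand, with 2 exons in the transcript used and 359 residues. Neutrophils had the highest level, 549 and 371 CPM from 324 and 346 UMIs, but only 8.42% and 10.3% of the Cxcr4 UMIs of kept cells. Those shares leave out 748 and 693 UMIs in barcodes removed as doublets. T cells held 811 and 573 UMIs (45.5 and 51.5 CPM) and B cells 775 and 819 (126 and 131 CPM). A further 1019 and 887 UMIs were in cells that passed several panels. In the C435A library the order after neutrophils was monocytes (174 CPM), B cells (126), C1q macrophages (115), alveolar macrophages (88.1), NK cells (60.8), conventional dendritic cells (54.9), T cells (45.5) and plasma cells (15.9). In the WT library B cells (131 CPM) came before monocytes (121), a step of 1.08-fold [0.900, 1.31] that counting error covers, and T cells (51.5) before conventional dendritic cells (45.3). Counting error also covered the step from B cells to C1q macrophages in the C435A library, that from alveolar macrophages to NK cells in the WT library, and in both libraries those from C1q to alveolar macrophages and among NK, T and conventional dendritic cells. The step from neutrophils to the next class was 3.15-fold [2.66, 3.74] and 2.83-fold [2.49, 3.21].

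By share, 42.3% [36.3, 48.6] and 33.2% [28.1, 38.5] of thinned neutrophils held a Cxcr4 UMI. Alveolar macrophages, set as the reference for low expression, had 8.37% and 6.68% at this depth, with median depths of 6768 and 9677 UMIs, and T cells had 5.15% and 5.01%. That reference was not a floor, since its 88.1 and 68.9 CPM lay above the 45.5 and 51.5 CPM of T cells. Before thinning, 39.1% and 41.1% of these deep alveolar macrophages held one, against 59.8% and 52.1% of neutrophils.

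Between the genotypes, Cxcr4 was the member with the largest ratio in neutrophils after Cxcl3, 0.57 [0.34, 0.79], or 1.48-fold, just inside the 1.5-fold bound. The thinned share was 9.13 points [1.39, 17.0] higher in the C435A library. Monocytes gave 0.52 [0.21, 0.84] from 240 and 135 UMIs and alveolar macrophages 0.35 [0.13, 0.58] from 367 and 310. C1q macrophages gave 0.49 [-0.05, 1.02] and conventional dendritic cells 0.28 [-0.43, 0.98]. The 5 myeloid ratios were therefore all above 0, with intervals that reach below 0 in the last 2. Lymphocytes stood lower: T cells -0.18 [-0.34, -0.02], NK cells 0.04 [-0.47, 0.57], with 8.91% of genes past 1.5-fold, B cells -0.06 [-0.20, 0.08] and plasma cells -0.65 [-1.60, 0.29]. Within T cells the ratio was -0.25 [-0.45, -0.05] in CD8 cells, -0.15 [-0.54, 0.24] in CD4 cells and 0.19 [-0.16, 0.53] in cells with neither or both, where 36.6%, 25.4% and 18.2% of genes were past 1.5-fold. With all T cells weighted the same the T cell ratio was 0.059, the opposite direction.

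**Figure D3:**
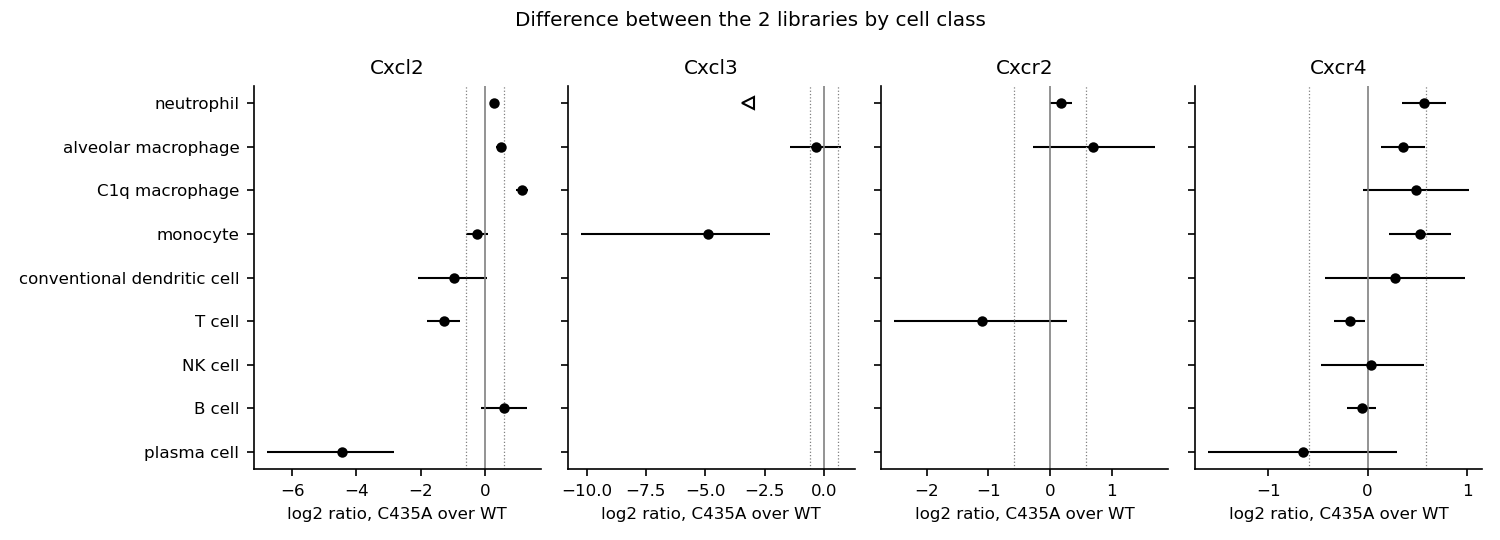
Log2 ratio of the C435A library over the WT library for each of the 4 genes in each class with at least 20 UMIs over both libraries. Bars are 95% intervals for counting error, dotted lines mark 1.5-fold, and the open triangle is Cxcl3 in neutrophils with the 0 UMIs of the C435A library set to 3. For Cxcr4 the 5 myeloid points lie between 0.28 and 0.57, and for Cxcl2 the points run from -4.46 in plasma cells to 1.14 in C1q macrophages.

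The make-up of the neutrophils differed between the libraries beyond counting error. Camp, Ngp and Ltf encode proteins of the secondary granules and are transcribed in maturing neutrophils. Cells with at least 3 UMIs of these 3 genes, called granule-rich here, were 37 of 271 neutrophils (13.7% [9.80, 18.3]) in the C435A library and 81 of 340 (23.8% [19.4, 28.7]) in the WT library. Being deeper, with medians of 4535 and 4843 UMIs against 1563 and 1696 in the other neutrophils, they held 32.4% and 50.4% of neutrophil UMIs. The 4 genes divided along this line. Cxcl2 had 94 and 178 UMIs in granule-rich cells (491 and 378 CPM) and 3045 and 3916 in the others (7639 and 8467 CPM), 15.6-fold [12.7, 19.3] and 22.4-fold [19.3, 26.2] higher in the others. Cxcr2 had 29 and 106 against 399 and 490 UMIs, 6.61-fold [4.53, 10.0] and 4.70-fold [3.81, 5.86] higher in the others. Cxcr4 had 32 and 59 against 292 and 287 UMIs, 4.38-fold [3.04, 6.53] and 4.95-fold [3.73, 6.67] higher. Of the 44 Cxcl3 UMIs, 43 were in the others. These folds compare CPM, and granule-rich cells are deeper, so the differences per cell were smaller. Mean Cxcl2 UMIs per cell were 2.5 and 2.2 in granule-rich cells against 13 and 15 in the others. For Cxcr2 the means were 0.78 and 1.31 against 1.71 and 1.89, and for Cxcr4 0.86 and 0.73 against 1.25 and 1.11. Among neutrophils, each of the 4 transcripts was thus at a higher level in cells with few granule transcripts, for Cxcl3 in the WT library alone.

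**Figure D4:**
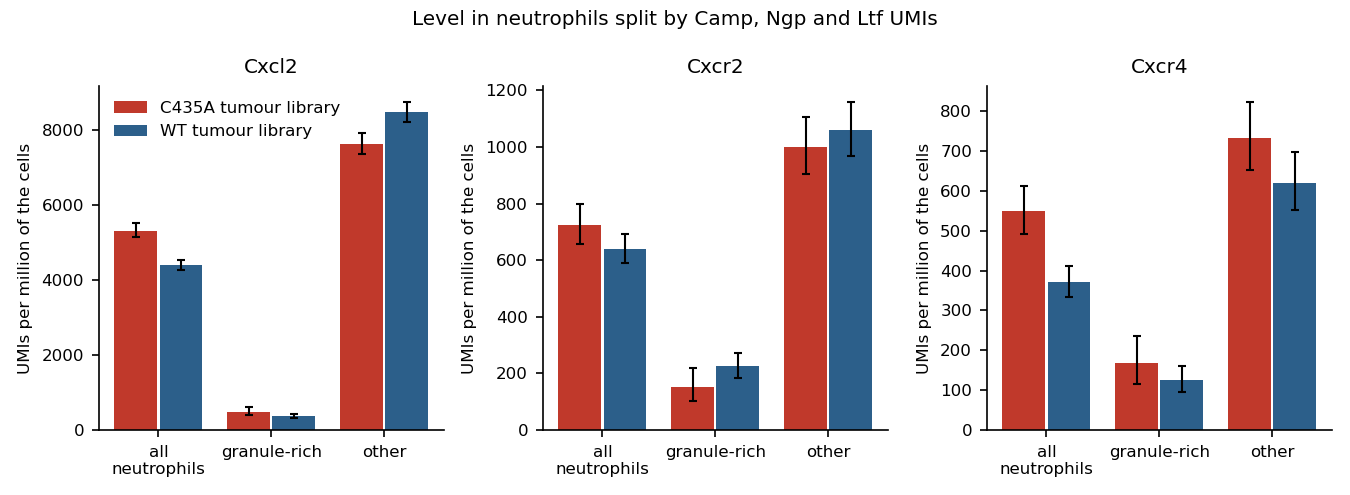
Level in CPM of Cxcl2, Cxcr2 and Cxcr4 in all gated neutrophils, in granule-rich neutrophils and in the other neutrophils of the C435A library (red) and the WT library (blue), with exact 95% Poisson intervals. For Cxcl2 and Cxcr2 the C435A bar is the higher one in all neutrophils and the lower one in the other neutrophils.

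Within the other neutrophils the genotype ratios changed. Cxcl2 was -0.15 [-0.22, -0.08], Cxcr2 was -0.082 [-0.28, 0.11] and Cxcr4 was 0.24 [-0.00, 0.48], with 9.86% of 2231 genes past 1.5-fold (5.83% higher, 4.03% lower) and a median of 0.029. For Cxcl2 this is the opposite direction from that in all neutrophils, and for Cxcr2 too. Thinned shares in these cells were 62.9% and 65.0% for Cxcl2, 61.8% and 62.5% for Cxcr2 and 46.2% and 39.8% for Cxcr4, the last a difference of 6.50 points [-2.61, 15.1]. Giving both libraries the WT share of granule-rich UMIs, a step added after the data were seen, put the ratios at -0.12 for Cxcl2, -0.16 for Cxcr2 and 0.27 for Cxcr4. Cxcl2 and Cxcr2 thus changed direction when granule-rich cells were left out or matched, while Cxcr4 stayed above 0 at a smaller size. Cxcl3 in the other neutrophils had 0 and 43 UMIs, the latter in 7 cells, and its exact interval for the log2 ratio ends at -3.27.

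The share of cells with a Cxcr4 UMI was similar with and without a Cxcr2 UMI. Among the other neutrophils at 1000 UMIs, a Cxcr4 UMI was present in 45.5% [36.9, 54.0] and 38.8% [31.0, 46.9] of those with Cxcr2 and in 47.4% [36.8, 58.7] and 41.4% [30.8, 51.5] of those without. Likewise a Cxcr4 UMI was present in 47.0% and 38.1% of those with Cxcl2 and in 45.0% and 42.8% of those without. The intervals overlap in each pair. Over all neutrophils, where granule-rich cells add to the cells without each transcript, Cxcr4 was present in 44.3% and 36.0% of Cxcr2-positive and 39.9% and 30.0% of Cxcr2-negative cells.

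Other genes of the same pathways were read from fixed lists in neutrophils, counting genes with at least 50 UMIs over both libraries past 1.5-fold against the 12.1% of all genes (8.36% higher and 3.78% lower in the C435A library). Of the list of CXCR2 ligands and receptors only Cxcl2 and Cxcr2 were measured at that level, and neither was past it. Cxcr1, the other receptor of the family, had 10 and 13 UMIs. Of the CXCR4 axis, 3 of 5 genes were measured and Cd74, the invariant chain of MHC class II and a receptor for MIF, was past it at 1.29 [1.03, 1.56]; Mif was at -0.46 [-1.26, 0.29] and Cxcl12 had 0 and 1 UMIs. Cd74 is abundant in B cells and dendritic cells, and its source in these neutrophils was not tested.

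Of 7 other chemoattractant receptors, Ptafr, the receptor for platelet-activating factor, was past the bound at 0.64 [0.33, 0.94], and 6 were within it (median 0.057). C5ar1, the complement C5a receptor, was at 0.53 [0.33, 0.72] and Fpr1, a formyl peptide receptor, at 0.14. Without granule-rich cells no gene of this list was past the bound, with Ptafr at 0.29 [-0.03, 0.61] and C5ar1 at 0.26 [0.05, 0.48]. Lowest in all neutrophils were Ltb4r1, the leukotriene B4 receptor, at -0.55 [-0.95, -0.15], Fpr2 at -0.27 and Ccrl2 at -0.07. None of 7 genes that switch off chemokine receptors was past the bound (median 0.12). The RGS gene Rgs2 was at 0.36, the receptor kinases Grk2 and Grk6 at 0.35 and 0.20, Rgs19 at 0.06, and the arrestins Arrb1 and Arrb2 at -0.09 and -0.14. None of 9 adhesion and release genes was past it either (median 0.17). The G-CSF receptor Csf3r and the integrin Itga4 were both at 0.48, while the decoy receptor Il1r2 was at -0.32 and the integrins Itgam and Itgb2 at -0.10 and 0.02. Of these, Csf3r and Il1r2 are in the neutrophil panel.

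NF-kB response genes, of which Cxcl2 is a textbook example, were past 1.5-fold higher in 5 of 14 cases and lower in none, with a median of 0.40. Icam1 led at 1.08 [0.53, 1.64], followed by Ccl4 at 0.77 [0.58, 0.96] and Tnf at 0.76 [0.28, 1.24]. At the other end were Tnfaip3, a brake on NF-kB, at -0.56 [-0.93, -0.20], Ier3 at -0.32 [-0.48, -0.15] and Cd14 at -0.15 [-0.36, 0.06]. Immediate early genes, which also respond to tissue digestion, were higher in 5 of 10 and lower in 1, with a median of 0.62. Egr1 was at 0.99 [0.85, 1.13], Fosb at 0.86 [0.66, 1.05] and Atf3 at 0.74 [0.42, 1.06], while Hspa1a was at -0.92 [-1.84, -0.08], Jun at -0.13 and Zfp36 at 0.24. Granule genes were past the bound lower in 2 of 7, with a median of -0.50. Ltf was at -0.79, the granulocyte transcription factor Cebpe at -0.63 and Mmp8 at -0.51, and Chil3, Camp and Ngp were at -0.32, -0.41 and -0.49. Of these 6, Ltf, Mmp8, Camp and Ngp are in the neutrophil panel.

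Without granule-rich cells the medians of both response lists were smaller. The NF-kB list then had 1 gene higher and 2 lower of 14, with a median of 0.031, and the immediate early list had none higher and 1 lower of 10, with a median of 0.23, beside 5.83% of all genes higher and 4.03% lower in these cells. Icam1 was at 0.73 [0.17, 1.30], and Tnfaip3 and Ier3 were at -0.95 [-1.33, -0.58] and -0.81 [-0.98, -0.63]. In alveolar macrophages, where Cxcl2 was at 0.48, the immediate early list had 8 of 11 genes past 1.5-fold higher (median 0.68), against 8.25% of all genes. Egr1 was at 1.23, Fosb at 0.97 and Fos at 0.82 there. The NF-kB list had none higher and 2 lower of 15 (median 0.09), Nfkbie at -0.69 and Ier3 at -0.59, against 3.95% of all genes lower. In C1q macrophages, with Cxcl2 at 1.14, the NF-kB list had 3 of 12 higher (median 0.34) and the immediate early list 5 of 11 (median 0.51), against 7.92% of all genes higher and 7.10% lower. The 3 were Tnfaip3 at 0.99, Nfkbia at 0.96 and Nfkbiz at 0.77. In T cells, where 32.7% of all genes were past 1.5-fold, all 11 immediate early genes were lower in the C435A library. They ran from -0.25 for Fosb to -1.78 for Hspa1a. In B cells and monocytes some genes of that list were higher and others lower. Whether the tissue digestion had a part in the Cxcl2 ratios of any of these classes was not tested.

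**Figure D5:**
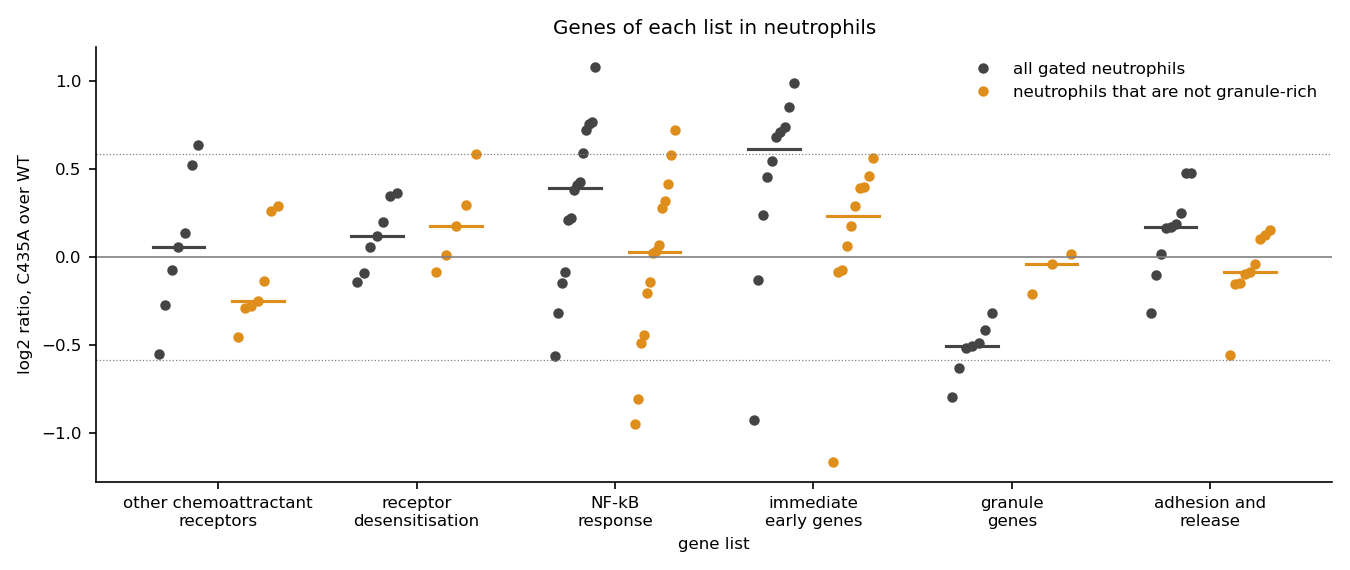
Log2 ratio of the C435A library over the WT library for the genes of 6 lists with at least 50 UMIs over both libraries, in all gated neutrophils (dark grey) and in neutrophils that are not granule-rich (orange). Short lines are list medians and dotted lines mark 1.5-fold; the NF-kB median moves from 0.40 to 0.031 and the immediate early median from 0.62 to 0.23.

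The genes most like each member were sought over the 9 classes of both libraries (18 points that share libraries, depths and the class marks) among 5227 genes outside the panels, by Pearson r of log2(CPM + 10). For Cxcl2 they were Clec4d, Hk3, Cd14, Nlrp3 and Slc16a3, with r from 0.97 to 0.95. For Cxcr2 they were Gm19696, Mrgpra2b, Nlrp12, Fcnb and Ceacam10, with r from 0.995 to 0.993. Cxcr4 was most like Tbc1d23, Ncf4, Mboat7, B9d2 and Xylt1, with r from 0.93 to 0.92. Cxcl3 had no close match: Lilra6, Cd177, Gm31814, Dgat2 and Bmx led with r from 0.66 to 0.64. All 20 genes had their highest level in neutrophils in both libraries. Neutrophils were also the top class of Cxcl2, Cxcr2 and Cxcr4, so for genes picked by likeness to these this was largely set by the selection.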

How the data were processed

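UMI counts per gene and barcode were used as the authors deposited them. The file headers name Cell Ranger 7.2.0 and the submitters' processing notes name GRCm38; no source used here gives the annotation release or intron setting. Per the labels' protocols both BD Rhapsody and 10x 3′ capture were used, so the platform is uncertain. Barcodes needed 200 genes, 500 UMIs and a mitochondrial share under 20%, and the 844 and 800 highest Scrublet scores (scanpy 1.11.5; 0.8% per 1000 barcodes) were removed as doublets.

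UMIs were summed by class and library. Ratios have exact conditional binomial intervals, counts exact Poisson intervals and shares exact Clopper-Pearson intervals (differences, Newcombe), at 95%, for counting error only. A count of 0 was set to 3 in a ratio, and 3 counts of the total is the limit given for a share of 0. Classes needed 50 cells in each library, ratios 20 UMIs over both, and genes counted past 1.5-fold 50 UMIs. Thinned shares are expected shares after thinning to 1000 UMIs, with shallower cells left out. TMM factors came from edgeR 4.0.16 and median ratio factors from DESeq2 1.42.0, with no test by either. On counts simulated with Poisson error alone, intervals covered the true ratio for 93.5% to 97.0% of 200 changed genes in 4 classes. That is the error the intervals assume, and the simulation held no clumping of UMIs in single cells. It therefore checks the calculation and cannot show coverage for clumped UMIs.

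Named genes are the members in all classes, the 3 highest and 3 lowest measured genes of each list in neutrophils, and the 5 genes most like each member; the chemokine neighbours and list genes below 50 UMIs were named after their values were seen. One item that this rule names is not reported here. The members, lists and panels were chosen with earlier results of these data known. Promoters are from RefSeq (GRCm38.p6; 4 of 4 members matched) and gene positions from GENCODE M21.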

Additional observations from a re-analysis of the deposited data

Results flagged for a closer look

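UMIs of the 4 genes also lay in barcodes outside the comparisons. Barcodes set aside as doublets held 1327 and 2766 UMIs of Cxcl2, 34 and 11 of Cxcl3, 114 and 245 of Cxcr2 and 748 and 693 of Cxcr4 (C435A library first). Cells that passed no panel held 246 and 261 UMIs of Cxcl2, 12 of Cxcl3 in the WT library, 6 of Cxcr2 in the C435A library, and 85 and 95 of Cxcr4. All lie above the 3 counts that a count of 0 allows, and their cell type is not known.

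Some ratios between the genotypes had intervals on opposite sides of 0 in 2 classes; the difference between classes was not tested, since each group is 1 library. For Cxcl2 the log2 ratio in T cells was lower than that in neutrophils by a difference of 1.57, than that in alveolar macrophages by 1.78 and than that in C1q macrophages by 2.43. Against plasma cells, where 1 WT cell held 47 of 51 UMIs, these differences were 4.74, 4.94 and 5.60. For Cxcr4 the ratio was above that in T cells by 0.75 in neutrophils, 0.53 in alveolar macrophages and 0.70 in monocytes; the T cell ratio reversed with equal weights.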

How the results depend on the processing

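Of 100 recomputed log2 ratios that answer a comparison, 74 stayed within the counting interval of the value reported. For Cxcl2 in neutrophils (0.28) a stricter panel rule gave 0.36, TMM factors 0.15 and median ratio factors 0.16; equal weight for all cells (-0.048), leaving out granule-rich cells (-0.15) and the WT granule-rich share (-0.12) reversed it. For Cxcr2 in neutrophils (0.18) the last 2 gave -0.082 and -0.16. Cxcr4 in neutrophils (0.57) was 0.33 with equal weights, 0.24 without granule-rich cells and 0.27 at the WT share. Cxcl3 in neutrophils (-3.21) was -2.59 under the stricter rule and -2.66 without its top cell. Cxcl2 in alveolar macrophages (0.48) was 0.69 under the stricter rule, 0.84 with several-panel cells given to the panel with most UMIs, 0.10 with no doublets removed, 0.65 with equal weights, 0.85 with several-panel cells resolved at 3 times the UMIs and 0.18 without cells with 3 UMIs of S100a8 and S100a9. Cxcl2 in C1q macrophages (1.14) was 0.69 under the stricter rule, 0.68 with the panel of most UMIs, 0.89 with equal weights, 1.39 without its top cell and 1.46 without the S100a8 and S100a9 cells. With equal weights Cxcr4 was 0.059 in T cells, a reversal, and 0.13 in B cells. The difference in thinned shares was -7.25 points for Cxcr2 in neutrophils at 2000 UMIs, with shallower cells left out. For Cxcr4 in alveolar macrophages it was -2.01 points without thinning. The share of genes past the bound was 29.1% and 20.5% (neutrophils, then alveolar macrophages) from 10 UMIs, 40.8% and 27.3% with 1 UMI in each library, and 2.09% and 2.47% at 2-fold. The cause of these moves was not tested. The 3-fold resolution of panels, the WT share and the S100a8 and S100a9 step were chosen after seeing the data. No paired analysis was possible because each group has 1 library. Single libraries and few Cxcl3 and macrophage cells limit the depth of every comparison.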
